A study of Homo sapiens with 2 samples.

Results

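Breast cancer stem cell markers are genes used to recognise the small tumour cell fraction that can start a new tumour. The 10 genes followed here were CD44, CD24, PROM1, PROCR, ALDH1A1, ALDH1A3, SOX2, SOX9, KLF4 and NANOG. They were taken by symbol, whatever their level, from 19775 genes with a probe set naming 1 gene. They were measured by 34 of the 54675 probe sets on the array. The 2 samples were stably infected MDA-MB-231 cells, a mesenchymal human line from triple-negative breast cancer, grown in DMEM with fetal bovine serum. One derivative had been infected with a control virus carrying an empty vector, and the other with a virus that overexpresses the microRNA miR-203. The labels give no promoter for the vectors and do not say whether each line was a clone or a pool of infected cells. Total RNA from each line was hybridised to 1 Affymetrix array. With 1 array per line there was no replicate, so no test was made, and each difference also holds whatever else differed between the cultures and hybridisations.

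In breast tumours, cells with much CD44 and little CD24 at their surface, or with high aldehyde dehydrogenase activity, have been used to enrich tumour-initiating cells. MDA-MB-231 is known as a CD44-high, CD24-low line. The transcription factors SOX2, KLF4 and NANOG act in pluripotent cells, and SOX9 acts in mammary progenitors. A microRNA lowers target mRNAs mainly by pairing of its seed, bases 2 to 8 from its 5′ end, with sites in their 3′ ends. The labels name miR-203 without an arm, and the name has long been used for the 3p arm of the MIR203A hairpin. Its sequences are shown because the labels name this RNA as the one overexpressed, and its level was not measured here. They are RefSeq's, on the plus strand of GRCh38.p14, with the mature RNA at chr14:104117469-104117490 and the hairpin at chr14:104117405-104117514. Capitals mark the seed in the mature RNA and the 3p arm in the hairpin.
hsa-miR-203a-3p: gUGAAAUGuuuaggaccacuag
MIR203A hairpin: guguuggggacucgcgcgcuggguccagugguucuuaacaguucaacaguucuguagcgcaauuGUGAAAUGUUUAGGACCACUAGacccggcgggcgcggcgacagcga

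The values are log2 expression per probe set, and each difference is the miR-203 value minus the empty-vector value. The arrays correlated with r = 0.996 over all probe sets, had medians of 5.38 and 5.38, and held the same value for 6.40% of probe sets. A gene's main probe set was the one with the highest mean of both arrays. A probe set counted as passing if its higher value reached 5.37, the median over all probe sets, which is not a detection limit. The main probe sets of 8 members passed, and those of PROM1 and ALDH1A1 did not. As a yardstick, each difference was set beside the middle 95% of the differences of the 500 probe sets nearest in mean level. This range describes these arrays and does not replace replicates. Probe sets bind with different strength, so levels of different genes were not ranked against each other. Within a gene, brighter and dimmer describe the values of its probe sets, not amounts of RNA. Of the 12 mesenchymal line markers, 11 passed, with VIM (vimentin) at 13.90 on the empty-vector array and 13.89 on the miR-203 array. SPARC did not pass, at 3.32 and 3.51. FN1 (fibronectin) was 1.49-fold higher with miR-203, from 10.95 to 11.52, and its 5 passing probe sets ran from 0.47 to 0.62, where similar probe sets of the main one spanned -0.30 to 0.39. TGFBI, a matrix protein, was at 0.46, the repressor SNAI2 (Slug) at -0.46, both just outside their ranges, and LOX (lysyl oxidase) at -0.40. The median of those 11 was -0.0085 and their summed log2 level was 112 in both lines, with members of both signs. Of the 7 blood and endothelial markers measured, 2 passed, PECAM1 and CD3E, with summed levels of 13.0 and 12.8. PTPRC, the pan-leukocyte marker, lay at 3.65 and 3.98, under the median level on both arrays. Of the 13 luminal markers, 11 passed, with summed levels of 89.3 and 88.1, 5 above 0 and 6 below. CDH1, at 4.15 and 3.99, and PGR, at 3.67 on both arrays, did not pass. Passing the level thus did not separate the luminal from the mesenchymal list. Of the 11 passing luminal genes, 0 were 2-fold higher and 1 was 2-fold lower, where 0.105% and 0.27% of the 13311 passing genes were. That gene was KRT19, a luminal keratin, 2.10-fold lower, from 9.84 to 8.77, where similar probe sets spanned -0.37 to 0.43. Its other probe set, under the median level, read 4.89 and 4.67. The receptor gene ERBB3 was at 0.37 and the factor FOXA1 at -0.26. Of 8 basal and myoepithelial markers, 6 were measured and 3 passed, with summed levels of 20.7 and 20.0. By main probe set these 3 were below 0. They were ACTA2 (smooth muscle actin), at -0.45 outside its range of -0.42 to 0.40, CNN1 at -0.15 and MYLK at -0.05. CNN1 passed only through its empty-vector value, 5.41, and other passing MYLK probe sets were at 0 and 0.15. Under the median level, KRT14 read 2.72 and 3.66, OXTR 4.54 and 4.34, and KRT5 5.24 on both arrays. The part of these lists in the results was not tested.

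None of the 10 markers differed by 2-fold between the lines (0 higher, 0 lower), and none by 1.5-fold. Over all 19775 genes, 0.0809% were 2-fold higher and 0.217% were 2-fold lower, and 0.779% and 1.14% were so at 1.5-fold. At such shares few calls could be met among 10 genes, so these counts of 0 do not set the markers apart. By the main probe sets, 5 markers were above 0 and 5 below, where 49.4% of all genes were above 0. The markers' differences ran from -0.33 for CD24 to 0.48 for ALDH1A3, with a median of 0.016, where the median over all genes was 0. Over the 34 probe sets, 12 were higher in the miR-203 line, 20 lower and 2 equal. Among the 20 lower, 9 were of CD44 and 5 of CD24. Of the 34, 29 lay within the range of similar probe sets and 5 outside it. Outside it lay 1 probe set each of CD44, CD24, ALDH1A3, SOX2 and SOX9. Among all 41091 probe sets naming 1 gene, 5.37% lay outside theirs. By the main probe sets, ALDH1A3 and SOX2 lay outside, where 5.57% of all genes did. Probe sets of a gene share a target, so the 34 are not 34 separate measurements.

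**Figure D1:**
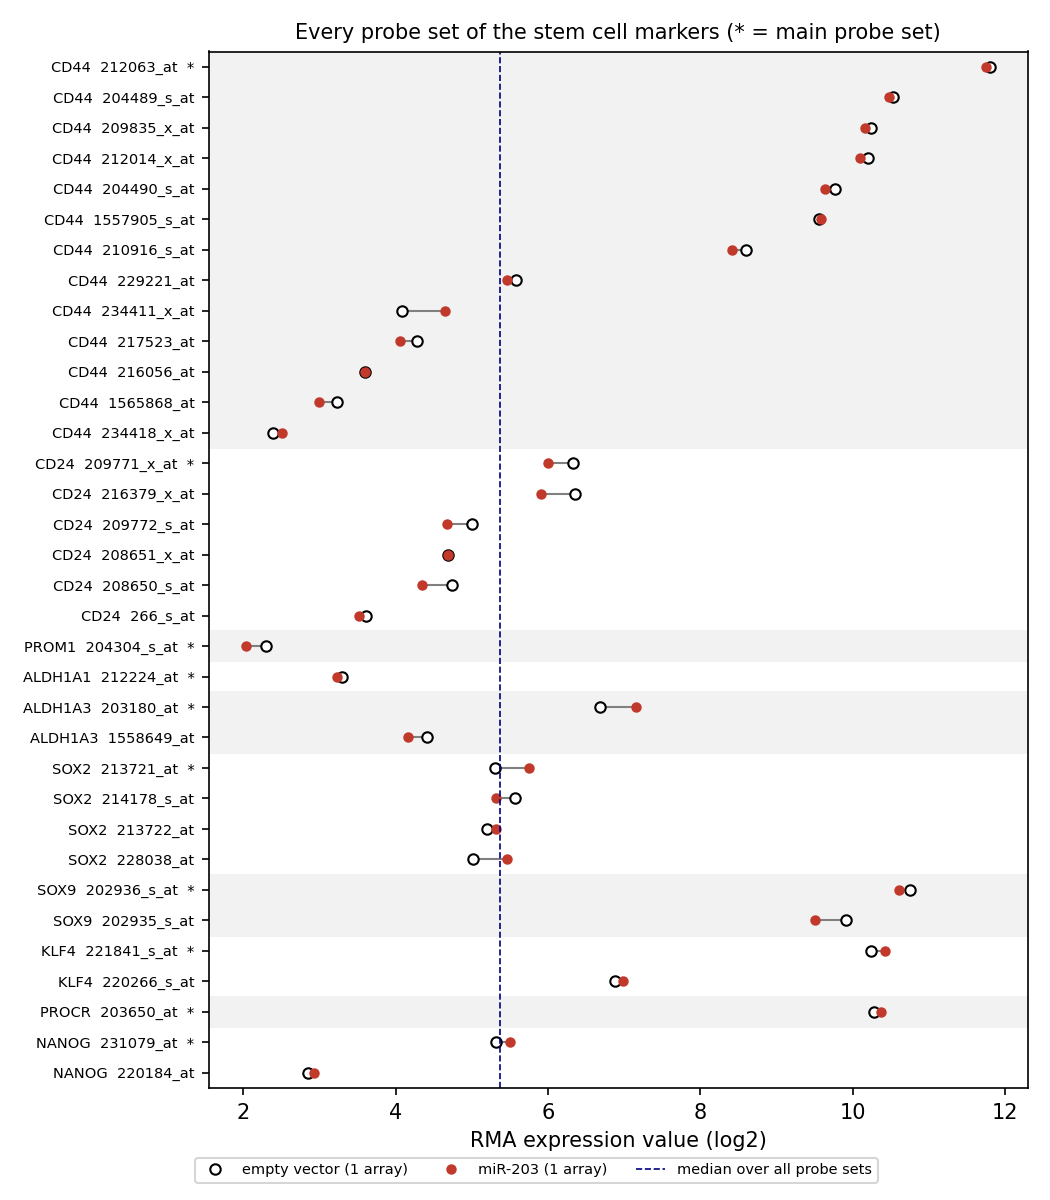
RMA expression values (log2, x axis) of each of the 34 probe sets of the 10 markers (y axis) on the empty-vector array (open) and the miR-203 array (red), 1 array each, with the median over all probe sets dashed. The pairs of points lie close together for CD44, KLF4 and PROCR at high values, and PROM1 and ALDH1A1 lie left of the dashed line on both arrays.

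Among the surface proteins, CD44, the receptor for hyaluronan, was at nearly the same high level in both lines. Its main probe set, 212063_at, read 11.81 with the empty vector and 11.75 with miR-203, a difference of -0.06 where similar probe sets spanned -0.24 to 0.30. Of its 13 probe sets, 8 passed, with differences from -0.17 to 0.025 and a median of -0.09. Of those 8, 1557905_s_at was the one above 0, at 9.56 and 9.58. The next brightest, 204489_s_at, went from 10.53 to 10.48, and 209835_x_at from 10.24 to 10.17. The probe set 212014_x_at read 10.20 and 10.09, and 204490_s_at 9.77 and 9.64. The dimmer 210916_s_at read 8.59 and 8.42, and 229221_at 5.58 and 5.47. All 8 lay inside the range of their level, and the larger of these differences were 1.10-fold and 1.13-fold.

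The other 5 CD44 probe sets lay under the median level on both arrays. They ran from -0.24 for 1565868_at to 0.56 for 234411_x_at. The latter read 4.08 and 4.65, a 1.48-fold difference outside the -0.59 to 0.46 of similar probe sets, and it was the largest difference of any member probe set. Its name ends in _x_at, a suffix for probe sets that can match other transcripts. The other 3 were 217523_at, at 4.27 and 4.06, 216056_at, at 3.60 on both arrays, and 234418_x_at, at 2.39 and 2.51. CD44 is spliced into many isoforms, and the annotation used here does not assign its probe sets to them.

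CD24, a small glycosylphosphatidylinositol-anchored surface protein, was lower in the miR-203 line by 5 of its 6 probe sets and equal by 1. Its main probe set, 209771_x_at, read 6.32 and 5.99, which is 1.26-fold lower and within the -0.49 to 0.38 of similar probe sets. The almost equally bright 216379_x_at read 6.36 and 5.91, which is 1.36-fold lower. Its difference of -0.449 lay just outside its range, which began at -0.445. These 2 passed, while the other 4 lay under the median level on both arrays. Of these, 209772_s_at read 5.01 and 4.67, 208650_s_at 4.74 and 4.34, and 266_s_at 3.61 and 3.52. The remaining one, 208651_x_at, read 4.69 on both arrays. In bulk RNA, fewer cells with CD24 and less CD24 RNA per cell cannot be told apart. All 6 probe sets end in _x_at or _s_at, and CD24 has near-identical processed copies in the genome, so part of this signal may belong to other sequences. The part of those copies was not tested.

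PROM1, the pentaspan protein known as CD133, was at 2.29 and 2.04 by its 1 probe set, 204304_s_at. Both values lay under the median level, and the difference of -0.25 lay within the -0.46 to 0.42 of similar probe sets. PROCR, the endothelial protein C receptor, which marks a multipotent mammary stem cell in mice, was bright in both lines. Its 1 probe set, 203650_at, read 10.28 and 10.37, a 1.07-fold difference within -0.34 to 0.38. For CD44 and PROCR, both values of the main probe set lay above 7.35, the 75th percentile over probe sets.

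The 2 aldehyde dehydrogenases, enzymes that oxidise retinal to retinoic acid, had main probe sets of different sign. ALDH1A3 read 6.68 with the empty vector and 7.16 with miR-203 by 203180_at. This was 1.39-fold higher, with a difference of 0.48 just outside the -0.43 to 0.44 of similar probe sets, and the largest among the main values of the 10 markers. Its other probe set, 1558649_at, had the opposite sign at 4.41 and 4.16, both under the median level and within range. With the median of the pair the difference was 0.11. ALDH1A1 read 3.30 and 3.23 by 212224_at, under the median level on both arrays and within its range.

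**Figure D2:**
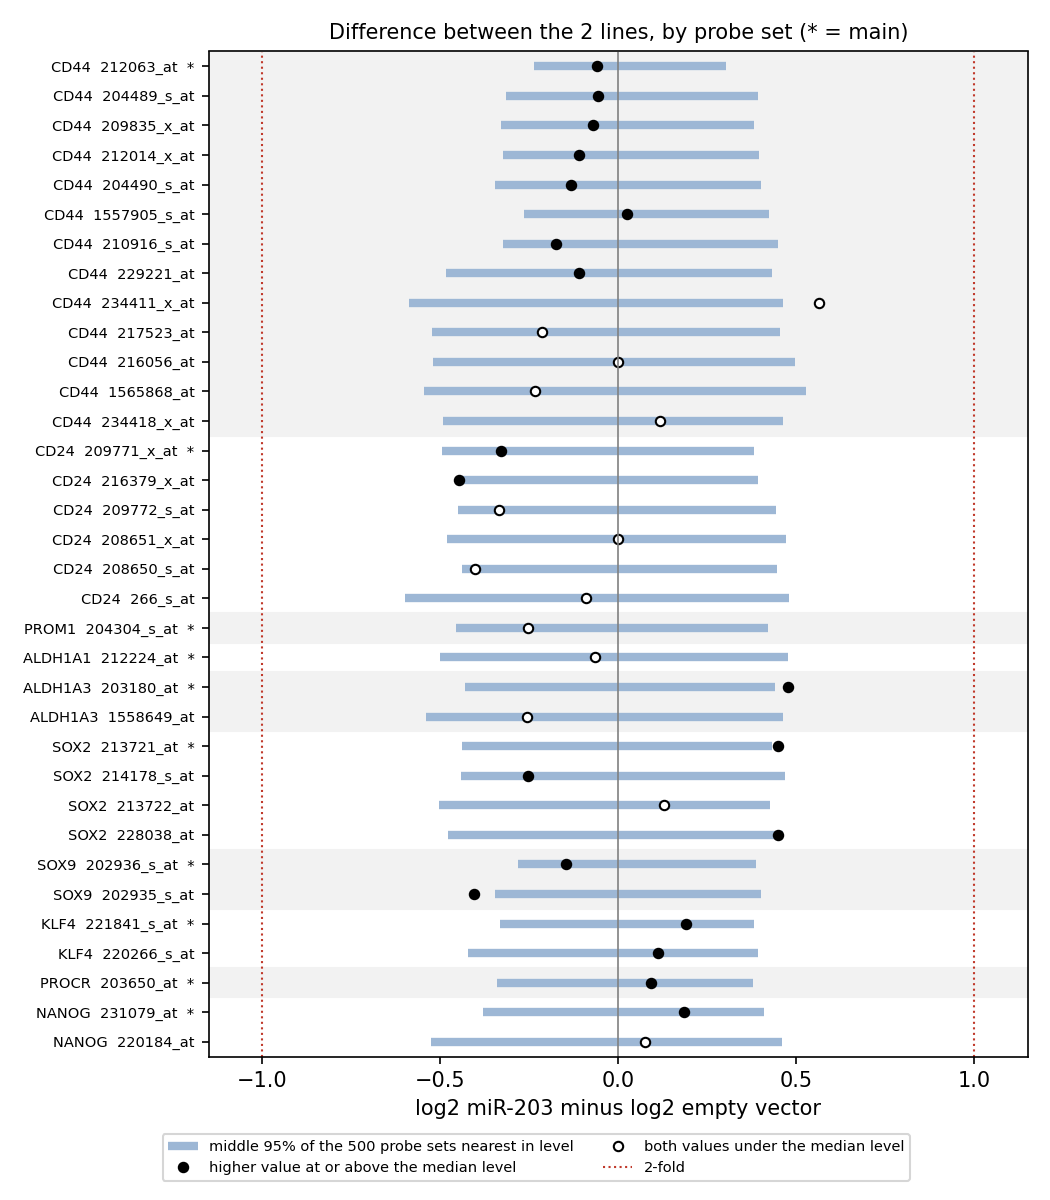
Difference between the lines (log2 miR-203 minus log2 empty vector, x axis) for each of the 34 probe sets (y axis), with filled points where the higher value reached the median level and open points where it did not. Blue bars give the middle 95% of the 500 probe sets nearest in level, and dotted lines 2-fold; 5 points lie outside their bars and none reaches a dotted line.

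Of the transcription factors, SOX9, an HMG-box factor of mammary progenitors, was bright in both lines and lower with miR-203 by both probe sets. The main one, 202936_s_at, read 10.75 and 10.61, a difference of -0.15 within the -0.28 to 0.39 of similar probe sets. The other, 202935_s_at, read 9.91 and 9.51. That is 1.32-fold lower, a difference of -0.40 outside the -0.35 to 0.40 of its level. The mean of the pair was -0.28.

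KLF4, a zinc-finger factor of epithelia and pluripotent cells, was slightly higher with miR-203 by both probe sets. The main one, 221841_s_at, read 10.24 and 10.43, and 220266_s_at read 6.88 and 6.99. The differences of 0.19 and 0.11 lay inside their ranges, of which that of the main one was -0.33 to 0.38. So SOX9 and KLF4, each with both probe sets passing, had opposite signs.

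SOX2 and NANOG lay close to the median level, where a gene passes more readily if its values differ. SOX2 had a main probe set, 213721_at, at 5.30 and 5.75. It was 1.37-fold higher with miR-203, just outside the -0.44 to 0.43 of similar probe sets, and its empty-vector value was under the level. Counted from that level, the difference was 0.38. A second probe set, 228038_at, gave the same difference of 0.45, from 5.01 to 5.46, inside its own range of -0.48 to 0.46. A further one, 213722_at, read 5.19 and 5.32. The probe set 214178_s_at, the highest for SOX2 on the empty-vector array, had the opposite sign at 5.57 and 5.31. Its choice as main would turn the SOX2 difference to -0.25. NANOG was at 5.32 and 5.50 by 231079_at and at 2.85 and 2.92 by 220184_at, both within range. The first again started under the level, from which the difference was 0.13.

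The other genes around these markers were taken from lists chosen by known function. For CD44 these were hyaluronan synthases and hyaluronidases, cytoskeletal partners, cleaving proteases and splicing factors. Of 23 genes, 20 were measured and 16 passed. Of these, 0 were 2-fold higher and 1 was 2-fold lower, where 0.105% and 0.27% of the 13311 passing genes were. The list median was -0.09, with 5 above 0 and 11 below. Over all passing genes the median was 0.013, and 52.1% were above 0. The 1 gene was HAS2, a hyaluronan synthase, which makes the ligand of CD44. Its brighter probe set read 6.46 with the empty vector and 5.43 with miR-203, 2.03-fold lower, where similar probe sets spanned -0.38 to 0.42. The second read 5.93 and 5.27, 1.59-fold lower, and with the mean or median of the pair HAS2 was no longer past 2-fold. HAS3, another hyaluronan synthase, had the opposite sign, at 5.79 and 6.23 by its main probe set and 5.48 and 5.58 by the other. The membrane protease MMP14, which can cleave CD44, was at 8.76 and 8.39. Its difference of -0.38 lay just outside the -0.34 to 0.47 of similar probe sets, and its 4 passing probe sets ran from -0.58 to -0.25. The splicing regulator ESRP1, known to favour epithelial CD44 isoforms, lay under the median level on both arrays, at 4.46 and 4.28.

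Around the aldehyde dehydrogenases, 12 of 17 other ALDH genes passed, with 3 above 0, 8 below, a median of -0.12 and none past 1.5-fold. Of all 13311 passing genes, 0.721% were 1.5-fold higher and 1.08% were 1.5-fold lower. ALDH6A1, a mitochondrial enzyme of valine breakdown, read 8.75 and 9.24, with 4 passing probe sets from 0.15 to 0.49. ALDH5A1, which breaks down a product of GABA, read 8.04 and 7.68, and ALDH18A1, of proline synthesis, 10.22 and 9.95. In the retinoic acid pathway, 13 of 18 genes passed, with a median of -0.0087. Of these, 0 were 2-fold higher and 1 was 2-fold lower, where 0.105% and 0.27% of all passing genes were. That gene was TGM2, tissue transglutaminase, a gene that retinoic acid induces, at 8.35 and 7.12, 2.34-fold lower. Its next 2 probe sets were 1.95-fold and 1.79-fold lower, from 7.22 to 6.26 and from 6.80 to 5.97. Its dimmest, at 5.62 and 5.80, had the opposite sign, and with the mean or median of its probe sets TGM2 was no longer past 2-fold. The receptor gene RARA was at -0.38 by its main probe set, with others up to 0.24. CYP26B1, which degrades retinoic acid, was at 0.27 by 1 probe set and -0.19 by the other.

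**Figure D3:**
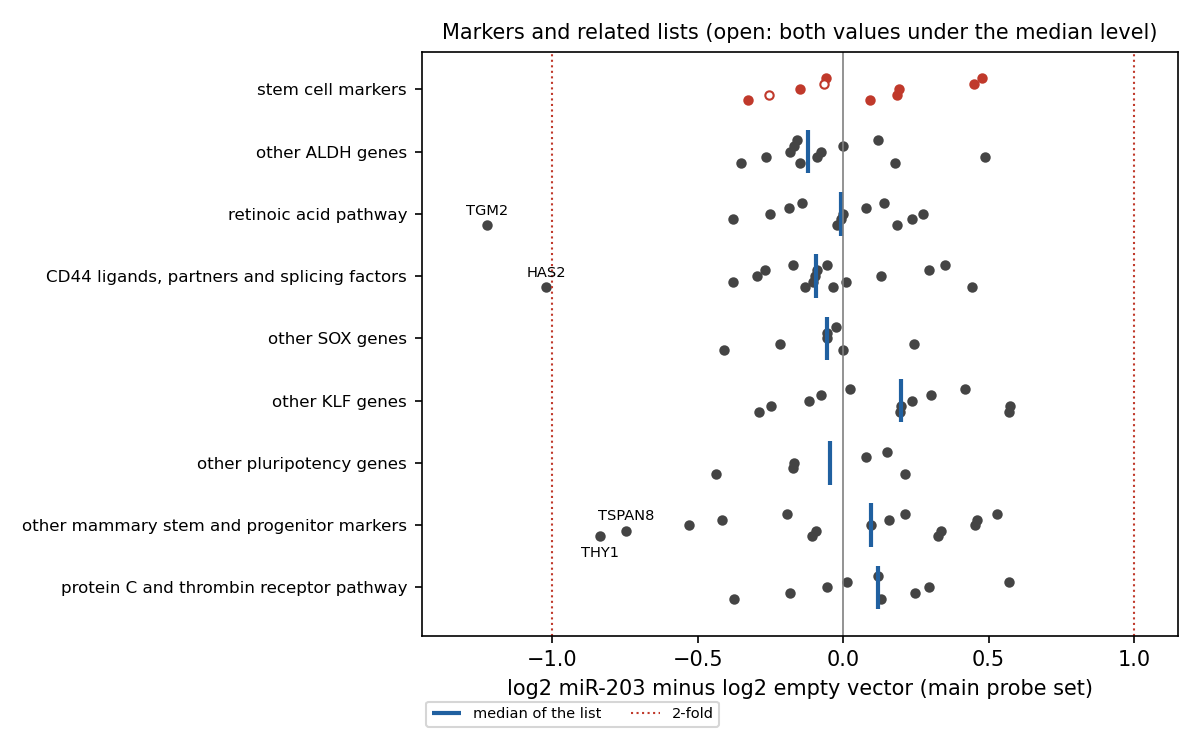
Differences (log2 miR-203 minus log2 empty vector, x axis) by main probe set for the 10 markers (red, open where both values lay under the median level) and for passing genes of 8 related lists (grey), with list medians in blue and 2-fold dotted. All 10 markers lie between -0.33 and 0.48, and TGM2 and HAS2 are the 2 genes past a dotted line.

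Of these 8 lists, that of other KLF genes had the highest median, 0.20 over 12 passing genes of 16. With no filter this median was 0.103. Of the 12, 8 were above 0, 4 below and none past 1.5-fold. Of all passing genes, 0.721% were 1.5-fold higher and 1.08% were 1.5-fold lower. KLF5, a factor of proliferating epithelia, read 8.11 and 8.68, and its second probe set gave 6.58 and 7.08. The main KLF5 difference of 0.57 lay outside the -0.32 to 0.46 of similar probe sets. KLF3, a transcriptional repressor, read 7.26 and 7.84, with 3 passing probe sets from 0.29 to 0.57. The highest of these, from the main probe set, lay outside its range of -0.38 to 0.42. KLF9 was at 0.42 by its main probe set, with others from -0.35. Of 17 other SOX genes, 7 passed, with 1 above 0, 5 below and a median of -0.05. With no filter the median of the SOX list was 0. SOX4, a bright member, was at 10.38 on both arrays. SOX6 was at 5.74 and 5.33, with the second value under the median level, so its sign among passing genes was set by the filter. SOX13 was at 7.94 and 7.73, and SOX15 at 6.18 and 6.42.

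Of 18 other pluripotency genes, 14 were measured and 6 passed, with 3 above 0, 3 below and a median of -0.04, which was 0.056 with no filter. LIN28A, an RNA-binding protein of embryonic stem cells, lay at 2.72 and 2.75, under the median level on both arrays, as was ZFP42 (REX1). Also under that level on both arrays, LIN28B read 3.97 and 3.07, and DPPA4 3.71 and 4.51. The T-box factor TBX3, which also acts in mammary development, was at 7.26 and 6.82 by its main probe set, within -0.50 to 0.41. Another probe set, 219682_s_at, read 6.19 and 3.64, 5.84-fold lower. The remaining 5 TBX3 probe sets lay under the median level, between -0.27 and 0.23, so its probe sets did not share that size. The orphan receptor ESRRB was at 5.38 and 5.59 and SALL4 at 6.24 and 6.06.

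Of 19 other mammary stem and progenitor markers, 15 passed, with 8 above 0, 7 below and a median of 0.096, which turned to -0.11 with the median over each gene's probe sets. At 1.5-fold 0 were higher and 2 lower, where 0.721% and 1.08% of passing genes were. THY1 (CD90), a surface glycoprotein, was 1.79-fold lower, from 7.80 to 6.96, and its other probe sets went from 7.12 to 6.34 and from 6.88 to 6.47. TSPAN8, a tetraspanin, was 1.68-fold lower by its 1 passing probe set, from 6.40 to 5.65. DCLK1, a microtubule-associated kinase, was 1.44-fold lower, from 7.05 to 6.52, and all 4 of its probe sets were below 0. The integrins ITGB4 and ITGB3 had the opposite sign, at 0.53 and 0.46 by their main probe sets, as had ITGB1 at 0.21. The integrin ITGA6 was at -0.09. For PROCR, 9 of 14 genes of the protein C and thrombin receptor pathway passed, with 6 above 0, 3 below, a median of 0.12 and none past 1.5-fold. F3, tissue factor, which starts coagulation, read 10.53 and 11.10, a difference of 0.57 where similar probe sets spanned -0.27 to 0.35. THBD, thrombomodulin, which works with PROCR to activate protein C, read 8.30 and 7.93, and SERPINA5, the protein C inhibitor, 5.19 and 5.49. SERPINA5 passed only through its miR-203 value, so its sign among passing genes was set by the filter. With no filter the list median was 0.0675.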

How the data were processed

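The values analysed are the authors' deposited log2 expression values, 1 per probe set and array, made with RMA (version not given in the sources used here) per the submitters' processing notes. Their range, 1.37 to 14.23, is the basis for taking them as log2. RMA forces both arrays to 1 distribution, so a shift of all mRNAs would be removed. Genes were named from the 41091 probe sets to which the platform annotation gives 1 symbol; 1801 with several, 11721 without an entry and 62 controls were not used for names. Symbols were updated to RefSeq through gene identifiers. Each gene took its probe set with the highest mean, and lists kept genes whose higher value reached 5.37. The 3 genes of each related list with the largest differences were to be named; others, and those of the cell type lists, were named after their values were seen. The members and lists were chosen with earlier results of these data known. Alternatives covered probe set choice, scaling, filters and thresholds. Python 3.11.15, pandas 2.3.3 and statsmodels 0.14.6 were used, and the counting was tested on simulated data.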

Additional observations from a re-analysis of the deposited data

How the results depend on the processing

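No paired analysis was possible because there was 1 array per line, so no replicate could be left out. The counts of members past 2-fold stayed at 0 under every alternative run, including 1.5-fold and 3-fold. The 3-fold threshold, the level filter and values raised to the level could not have added calls to 0. Centring on the median of all genes changed nothing, since that median was 0. Among the members, SOX2 and NANOG reached the level only by their higher miR-203 values. The filter left out PROM1 and ALDH1A1, both below 0. The members' median difference of 0.0163 was 0.138 over the 8 members passing the level, a rise that the filter in part sets. It was 0.122 with the mean over passing probe sets, which also leaves out PROM1 and ALDH1A1, and 0.138 without _x_at and _s_at probe sets (which leaves no value for CD24, PROM1, SOX9 and KLF4). It stayed within 0.1 under the other alternatives run. Of 64 recomputed member differences, 8 moved by over 0.1, and SOX2 changed sign with the probe set highest on the empty-vector array, to -0.253. The retinoic acid, CD44 and luminal lists had 1 gene each 2-fold lower, and 0 with the median over probe sets. With the mean over passing probe sets, the retinoic acid and CD44 lists had 0, the luminal list kept a count of 1, and the pluripotency list had 1, which was TBX3. With the filter at the 75th percentile the CD44 list had 0. The median of the other mammary markers was -0.108 with the median over probe sets, -0.0935 without _x_at and _s_at probe sets and -0.101 with the stricter filter, against 0.0957. The protein C median was 0.00406 without _x_at and _s_at probe sets. The pluripotency median of -0.0446 was 0.0558 with no filter and 0.0376 with values under the level raised to it. Under the alternatives, medians were not followed for lists with under 5 passing genes. The 2 arrays limit the precision, and dim probe sets spread more widely than bright ones.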
